A study of Mus musculus with 12 samples.

Results

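Solute carriers were examined in 4 lines of mouse embryonic stem (ES) cells that differ at Rex1 (Zfp42), a zinc finger gene expressed in undifferentiated ES cells. The members were the gene probes whose name in the array files begins with Slc and a digit, apart from 1 gene name that the rule left out (2 probes). These were 94 of the 20280 gene probes of the array, for 72 gene symbols under 31 carrier numbers, and 18 symbols had more than 1 probe. EB5 is the wild type line. RKPG9 is Rex1+/-, a single clone in which the start of the reading frame of one allele was replaced by a fusion of puromycin resistance and EGFP (pacEGFP). HP3 and HP4 are Rex1-/- lines. The study derived such lines in more than one way, by gene conversion in RKPG9 under a high dose of puromycin or with a further vector, and the sources used here do not tie HP3 or HP4 to either. All 4 lines derive from E14tg2a cells and were grown without feeder cells in medium with LIF. Every line was measured on 3 arrays of 2 colours, with the RNA of the line in Cy3 and one universal reference RNA, an equal pool from 11 mouse cell lines, in Cy5.

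Solute carriers are membrane proteins that move small molecules across the plasma membrane or the membranes of organelles, by facilitated diffusion or by coupling one solute to the gradient of another. The number after Slc names a family that shares sequence, so that hexose carriers, cation-chloride cotransporters and the carriers of the inner mitochondrial membrane each form a family of their own. ES cells divide rapidly, take up much glucose and export lactate, and depend on imported amino acids, among which glutamine and threonine have been studied most. A few genes bear an Slc name without being carriers: among the members these were Slc4a1ap, which encodes an adaptor protein, and Slc9a3r1, which encodes a scaffold protein of the cell cortex.

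All values below are log2 ratios of Cy3 over Cy5 after background correction and loess normalisation. A positive ratio means that a line was above the reference, and a difference between lines is a difference of such ratios, in which the reference cancels. A difference passed the test where its Benjamini-Hochberg adjusted p, from a limma fit to the 12 arrays and adjusted over all gene probes, was under 0.05. Nothing in the labels tells if the arrays of one line hold RNA of different cultures, and the p-values therefore reflect array-to-array spread that could be technical in part or whole. The EB5 arrays were read by the scanner software in a session of their own, with a global background adjustment that the session of the other 9 arrays did not have. In each comparison with EB5 the line and that session therefore cannot be told apart, whereas HP3, HP4 and RKPG9 can be compared within one session. The share of gene probes well above background in Cy3 ran from 92.2% to 94.5% in EB5 and from 85.3% to 89.9% in the other lines.

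ES cell markers were present in every line, with 8 of 8 measured well above background on all 12 arrays. In HP4, 1 was higher and 5 were lower than in RKPG9, and 0 were higher and 5 lower than in HP3 by limma (median log2 changes -0.28 and -0.40), with Klf4 at -0.34 and -0.54 and Esrrb at -0.67 and -0.55. The 5 lower in each comparison included Zfp42 itself, at -0.58 against RKPG9 and -0.55 against HP3. Against EB5, 2 ES cell markers were higher and 0 lower in HP3, 1 higher and 2 lower in HP4, and 2 higher and 1 lower in RKPG9. The summed Cy3 signal of the 8, Zfp42 included, was 21800 to 22700 on RKPG9 arrays, 16600 to 17600 on HP3 and 14000 to 14800 on HP4. On EB5 arrays it was 18300 to 20100, but outlier spots of Pou5f1 and Esrrb were left out there and add nothing to the sum. The EB5 sum is therefore too low to be set beside the others. The Zfp42 probe lay far above the reference in every line, at mean log2 ratios of 5.98 for EB5, 6.03 for RKPG9, 5.99 for HP3 and 5.44 for HP4. It does not check the genotypes, because the Rex1-/- lines still make a long transcript of truncated Rex1 and pacEGFP and the probe's place in it is not known here. The differences were measured in whole cultures, in which fewer cells of a type and less RNA per cell cannot be told apart. Of 6 measured fibroblast and mesenchymal markers, 6 were lower in HP3, 4 in HP4 and 4 in RKPG9 than in EB5. Their summed Cy3 signal ranged over 7140 to 7460 for EB5 arrays, 5070 to 5290 for RKPG9, 3410 to 3500 for HP3 and 3750 to 3790 for HP4. The sum of 1 EB5 array lacks a Col1a2 spot, left out as an outlier. In HP4, 3 of these markers were higher and 2 lower than in RKPG9 and 4 higher than in HP3. Trophoblast markers moved with them, 4, 3 and 4 of 6 being lower than in EB5 in HP3, HP4 and RKPG9, where Krt18 fell by 2.60, 2.1 and 2.52 and Krt7 by 1.25, 1.01 and 1.20 log2 units. Cdx2 was also lower in each of these lines, and Gata3 in HP3 and RKPG9 but not in HP4, where it was 0.085 and did not pass. Eomes and Hand1, well above background on no HP4 array, passed in none of the 3 comparisons with EB5. In HP4, 3 of the 6 trophoblast markers were higher and 0 lower than in RKPG9, and 3 were higher and 0 lower than in HP3. The summed Cy3 signal of the 6 was 1410 to 1490 on EB5 arrays, 829 to 867 on RKPG9 and 828 to 901 on HP4. On HP3 it was 510 to 857, where the Cdx2 spot of 1 array was left out as an outlier and adds nothing to its sum. Of 3 mesoderm markers, 2, 3 and 1 were lower in the same order. Of 8 endoderm markers, 3 were lower in HP3, 2 higher and 1 lower in HP4 and 1 higher and 1 lower in RKPG9. Of 3 neural markers, 1 was higher and 2 lower in RKPG9, and 0 passed limma's test in HP3 or HP4, where 3 and 0 had an unadjusted p under 0.05. The part of these markers in the differences between lines was not tested. Among the members, 83 probes were well above background in Cy3 on all 12 arrays, 7 were so on no array of at least 1 line, and 2, both for Slc34a2, on no array at all. No member spot was saturated.

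Because Rex1 resembles the zinc finger factor Yy1, the sequence before the start sites of the members with the largest differences is shown, to let the letters be read beside the values. The 250 bases before the annotated start were taken from RefSeq on build GRCm38.p6, in which 50 of the 72 member symbols had an entry. Capitals mark matches on either strand to CCATNTT, the core bound by Yy1, and to GGGCGG, a GC box; the motifs do not overlap in these windows. The windows are chr9:108661886-108662135 on the plus strand for Slc25a20, chr8:105966116-105966365 on the minus strand for Slc12a4, chr2:126552774-126553023 on the plus strand for Slc27a2 and chr4:119108495-119108744 on the plus strand for Slc2a1.
Slc25a20: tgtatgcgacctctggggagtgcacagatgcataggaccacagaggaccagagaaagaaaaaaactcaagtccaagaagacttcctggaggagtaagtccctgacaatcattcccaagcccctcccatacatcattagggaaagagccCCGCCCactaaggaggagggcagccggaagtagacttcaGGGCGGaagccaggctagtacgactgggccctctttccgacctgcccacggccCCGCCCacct
Slc12a4: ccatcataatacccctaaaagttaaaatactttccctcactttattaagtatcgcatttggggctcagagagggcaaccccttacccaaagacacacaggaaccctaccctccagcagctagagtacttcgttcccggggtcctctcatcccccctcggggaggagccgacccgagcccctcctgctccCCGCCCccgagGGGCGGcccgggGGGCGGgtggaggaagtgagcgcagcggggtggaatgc
Slc27a2: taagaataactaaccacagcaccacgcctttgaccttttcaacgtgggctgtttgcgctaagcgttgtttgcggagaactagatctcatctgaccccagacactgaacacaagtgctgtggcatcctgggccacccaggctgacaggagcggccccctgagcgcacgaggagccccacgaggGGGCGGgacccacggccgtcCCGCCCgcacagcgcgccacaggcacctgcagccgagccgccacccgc
Slc2a1: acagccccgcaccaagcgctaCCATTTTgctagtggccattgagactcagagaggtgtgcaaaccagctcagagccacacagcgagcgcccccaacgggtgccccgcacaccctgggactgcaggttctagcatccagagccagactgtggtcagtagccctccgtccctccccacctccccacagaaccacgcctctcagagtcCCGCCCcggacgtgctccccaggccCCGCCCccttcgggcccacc

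The Yy1 core was present 1 time, in the window of Slc2a1, and GC boxes were present 3, 3, 2 and 2 times in the order shown. Over all 32851 windows of that length, 12.4% held CCATNTT and 32.7% held GGGCGG. The GC content was 56.8%, 60.8%, 64.0% and 66.4% in the same order, against a median of 59.0% over the windows of member genes and 52.4% over all windows. A match is a description of the letters only, and windows without a match say nothing about the factor. Slc40a1, the other member with a 2-fold difference, is named without sequence.

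Of the 94 member probes, 69 passed the test in at least 1 of the 6 comparisons between lines, for 55 symbols, and 25 probes passed in none, so that 17 symbols had no probe past the test. In HP3 against EB5, 12 members were higher and 20 lower, beside 30.7% of all probes called, 11.4% higher and 19.4% lower. In HP4 against EB5, 12 were higher and 28 lower, beside 45% called, 18.4% higher and 26.7% lower. RKPG9 against EB5 gave 14 higher and 32 lower members, where 34.4% of all probes were called, 12.5% higher and 21.8% lower. These were 34%, 42.6% and 48.9% of the members. The last was the highest count of the 6 comparisons with this processing, and stayed so with outlier spots kept and with dim probes filtered out. From the scanner software's processed signals, RKPG9 against EB5 gave 14 higher and 22 lower members and HP4 against EB5 14 and 37. There 34.5% and 56.2% of all probes were called, and the rank was lost under several other alternatives too. Within the session of the other lines, HP3 against RKPG9 gave 13 higher and 20 lower members beside 22.8% of all probes (12.7% higher, 10.1% lower). In HP4 against RKPG9, 16 were higher and 26 lower, beside 40.1% (20.9% higher, 19.2% lower). The Rex1-/- lines differed from each other in 12 members higher in HP4 and 14 lower, beside 28.6% (13.8% higher, 14.8% lower). As shares of the members, the last 3 comparisons came to 35.1%, 44.7% and 27.7%. The shares of all probes given here are also the background for the counts of markers above and of carrier groups and listed genes below.

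The differences were small. The median log2 change of the members was -0.032 in HP3, -0.063 in HP4 and -0.055 in RKPG9 against EB5, where the medians of all probes were -0.017, -0.020 and -0.021. It was -0.027 and -0.023 in HP3 and HP4 against RKPG9 and -0.0081 in HP4 against HP3, beside 0.0035, 0.0085 and 0.0019. Differences over 2-fold that passed the test were found in 4 members in all. There was 1 in HP3 against EB5, where 0.217% of all probes met that mark, 2 in HP4 against EB5 (0.291%) and 2 in RKPG9 against EB5 (0.529%). HP3 against RKPG9 gave 1 (0.281%), and in HP4 against RKPG9 and HP4 against HP3 no member changed by 2-fold, with or without the limma test (0.38% and 0.0247% of all probes). The balance of higher and lower members moved with the scaling. With each array centred on its median log ratio in place of loess (median centring), HP3 against EB5 gave 7 higher and 35 lower (37.1% of all probes called) and HP4 against HP3 gave 21 and 44 (70.6%). From the Cy3 channel alone, without the reference, the counts were 21 and 26 in HP4 against EB5, 18 and 18 in RKPG9 against EB5 and 7 and 21 in HP4 against RKPG9, beside 44.8%, 25.4% and 26.6% of all probes called. From the authors' value table they were 15 and 21 in RKPG9 against EB5 and 8 and 16 in HP4 against HP3, beside 34.3% and 31%. For each member change named below that lost its call in 5 or more of the 14 or 15 alternatives run, leaving out single arrays included, that number is given beside it. The markers and the listed genes outside the members were not followed through the alternatives.

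**Figure D1:**
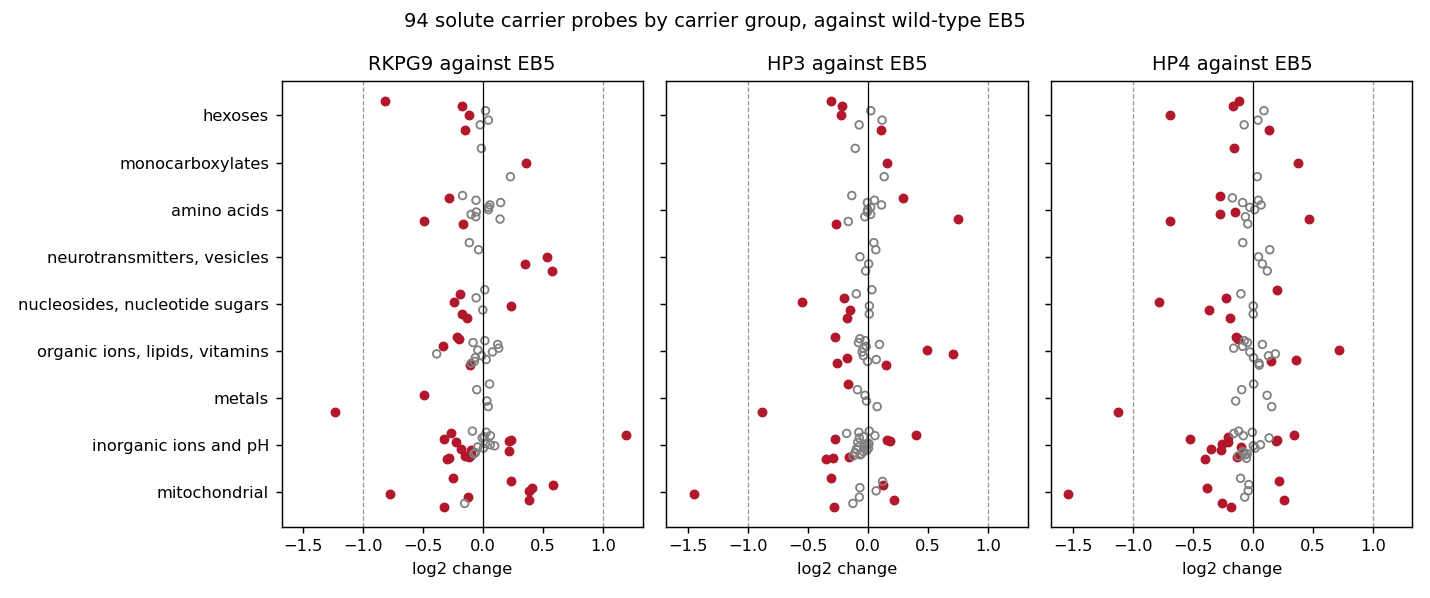
Log2 change of the 94 solute carrier probes in HP3, HP4 and RKPG9 against EB5 (x axis, log2 units), in rows by carrier group. Each point is 1 probe, filled where its adjusted p was under 0.05 and open otherwise, and the dashed lines mark 2-fold. Most points lie between the dashed lines, with Slc25a20 at -1.45 and -1.54 in HP3 and HP4 and Slc12a4 at 1.19 in RKPG9.

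**Figure D2:**
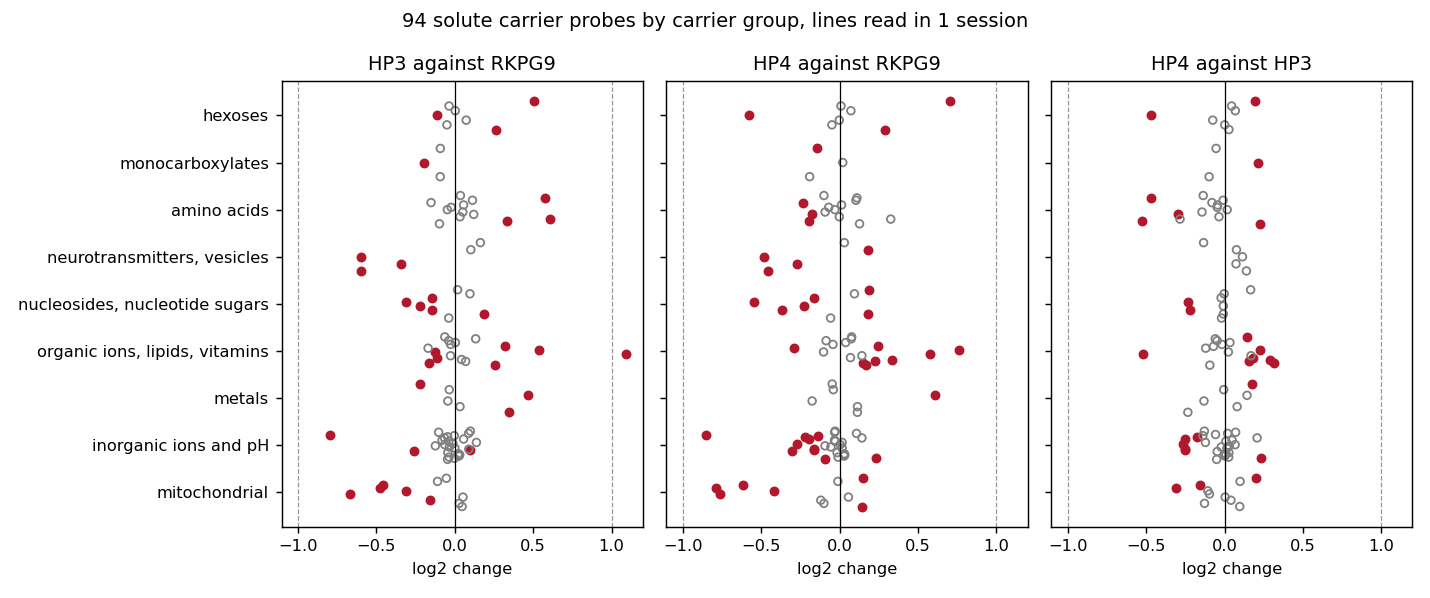
Log2 change of the same probes between lines read in one session: HP3 and HP4 against RKPG9, and HP4 against HP3 (x axis, log2 units). Symbols are filled where the adjusted p was under 0.05 and open otherwise, and the dashed lines mark 2-fold. Slc27a2 at 1.09 in HP3 against RKPG9 is the only point past 2-fold.

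Slc25a20, the carnitine-acylcarnitine carrier that brings long-chain fatty acids into mitochondria for oxidation, had the largest falls of any member in HP3 and HP4 against EB5. Its log2 ratios were 1.81, 1.75 and 1.77 for EB5, 1.00, 1.01 and 0.98 for RKPG9, 0.33, 0.28 and 0.39 for HP3, and 0.31, 0.18 and 0.21 for HP4. The 3 arrays of each of EB5 and RKPG9 stood apart from each other and from all 6 arrays of the Rex1-/- lines, which overlapped each other. Against EB5, Slc25a20 fell by 1.45 log2 units (SE 0.040, adjusted p = 1.3e-09) in HP3, which is 2.73-fold, and by 1.54 log2 units (SE 0.040, adjusted p = 7.1e-10) in HP4, which is 2.91-fold. RKPG9 lay between, with a fall of 0.78 log2 units (SE 0.040, adjusted p = 6.8e-08) from EB5. Within one session, Slc25a20 fell by 0.67 log2 units (SE 0.040, adjusted p = 3.5e-07) in HP3 and by 0.77 log2 units (SE 0.040, adjusted p = 8.7e-08) in HP4 against RKPG9, and HP4 against HP3 gave -0.10 (SE 0.040, adjusted p = 0.096). Slc25a20 is one of the genes that the study itself picked on these samples, so its direction in HP3 against EB5 is not independent of that choice. Without background subtraction the same falls were smaller, at -0.72 in HP3 and -0.78 in HP4 against EB5 and -0.31 and -0.37 against RKPG9, all still past the test.

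Genes that work with Slc25a20 were read from a list of 8 measured genes of carnitine handling and fatty acid oxidation. Against EB5 the list had 1 higher and 6 lower in HP3, 1 higher and 6 lower in HP4 and 1 higher and 4 lower in RKPG9, with median log2 changes of -0.22, -0.24 and -0.19 beside the all-probe medians near -0.02 given above. Of all probes, 19.4%, 26.7% and 21.8% were lower in the same order. Cpt2, which releases the carnitine inside mitochondria, fell by 0.33, 0.31 and 0.69 log2 units in HP3, HP4 and RKPG9. Acadvl, the very long-chain acyl-CoA dehydrogenase, fell by 0.42, 0.28 and 0.35. Cpt1c, a brain form of carnitine palmitoyltransferase, was the 1 gene higher than EB5 in each line, by 0.19, 0.26 and 0.19. Against RKPG9 the list had 2 higher and 2 lower in HP3 and 2 higher and 1 lower in HP4, and Cpt2 rose there by 0.36 and 0.38 while Slc25a20 fell.

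Slc40a1 encodes ferroportin, which exports iron from cells. Its probe bears the name Slc39a1 in the array files, with a description as an iron-regulated transporter, and was matched to Slc40a1 because 20 of 20 neighbouring cluster numbers of the array lie on chromosome 1. Array by array, the log2 ratios were 0.96, 0.76 and 0.90 for EB5, -0.43, -0.42 and -0.25 for RKPG9, -0.15, -0.091 and 0.19 for HP3, and -0.45, -0.21 and -0.095 for HP4. All 9 arrays of the other lines were below the 3 of EB5, and the 3 other lines overlapped in part. Slc40a1 fell by 1.23 log2 units (SE 0.10, adjusted p = 3.3e-06) in RKPG9, 2.35-fold, by 1.12 log2 units (SE 0.10, adjusted p = 1e-05) in HP4, 2.18-fold, and by 0.89 log2 units (SE 0.10, adjusted p = 7.5e-05) in HP3, 1.85-fold. It was also picked by the study on these samples. Within one session HP3 was above RKPG9 by 0.35 log2 units (SE 0.10, adjusted p = 0.031), a call lost in 5 of 15 alternatives, among them those without background subtraction (0.076) and from Cy3 alone (0.16). HP4 against RKPG9 was 0.11 (SE 0.10, adjusted p = 0.42). Without background subtraction the falls from EB5 were -0.43, -0.38 and -0.35 in RKPG9, HP4 and HP3.

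None of the 7 other measured genes of iron handling was lower than EB5 in limma's test. They had 0 higher and 0 lower in HP3, where 0 had an unadjusted p under 0.05, 2 higher and 0 lower in HP4 and 3 higher and 0 lower in RKPG9. Of all probes, 11.4%, 18.4% and 12.5% were higher in the same order. Tfrc, the transferrin receptor through which cells take up iron, rose by 0.23 log2 units in RKPG9 against EB5, and fell by 0.20 and 0.26 in HP3 and HP4 against RKPG9. These Tfrc values rest on a single RKPG9 array, because its other spots in that line were left out as outliers. Tfrc is among the 3 genes counted as higher in RKPG9. Hmox1, the haem oxygenase that frees iron from haem, rose by 0.18 in HP4 and 0.21 in RKPG9 against EB5.

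Slc12a4, the potassium-chloride cotransporter KCC1 that takes part in cell volume control, was highest in the heterozygous line. The probe read log2 ratios of -0.78, -0.74 and -0.79 for EB5, 0.39, 0.42 and 0.46 for RKPG9, -0.37, -0.39 and -0.36 for HP3, and -0.37, -0.46 and -0.46 for HP4. The 3 RKPG9 arrays were above all others, the 3 EB5 arrays below all others, and the Rex1-/- lines lay between and overlapped. Slc12a4 rose by 1.19 log2 units (SE 0.035, adjusted p = 9.7e-10) in RKPG9 against EB5, which is 2.29-fold. It fell by 0.79 log2 units (SE 0.035, adjusted p = 4e-08) in HP3 and by 0.85 log2 units (SE 0.035, adjusted p = 1.6e-08) in HP4 against RKPG9. Against EB5 it was higher in HP3 by 0.40 log2 units (SE 0.035, adjusted p = 8.5e-06) and in HP4 by 0.34 log2 units (SE 0.035, adjusted p = 1.9e-05), the latter turning to -0.25 with median centring.

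Slc27a2, a fatty acid transport protein that also activates very long-chain fatty acids, was highest in HP3. Its log2 ratios were 2.59, 2.63 and 2.70 for EB5, 2.48, 2.27 and 2.02 for RKPG9, 3.14, 3.43 and 3.47 for HP3, and 2.95, 3.01 and 2.52 for HP4. All 3 HP3 arrays were above the other 9, all 3 RKPG9 arrays below the other 9, and HP4 overlapped EB5. Slc27a2 rose by 1.09 log2 units (SE 0.14, adjusted p = 0.00012) in HP3 against RKPG9, 2.13-fold, and by 0.71 log2 units (SE 0.14, adjusted p = 0.0026) against EB5. HP4 was above RKPG9 by 0.57 log2 units (SE 0.14, adjusted p = 0.0063) and below HP3 by 0.52 log2 units (SE 0.14, adjusted p = 0.016), a call lost in 6 of 15. HP4 against EB5 was 0.19 (SE 0.14, adjusted p = 0.29). RKPG9 fell by 0.39 log2 units against EB5, with an adjusted p that rounds to the threshold of 0.05, and the call was lost in 10 of 14. HP4 against RKPG9 did not pass without background subtraction (0.10) or with median centring (0.31), and without RKPG9 replicate 3, its lowest array, the 2-fold count of HP3 against RKPG9 was 0.

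**Figure D3:**
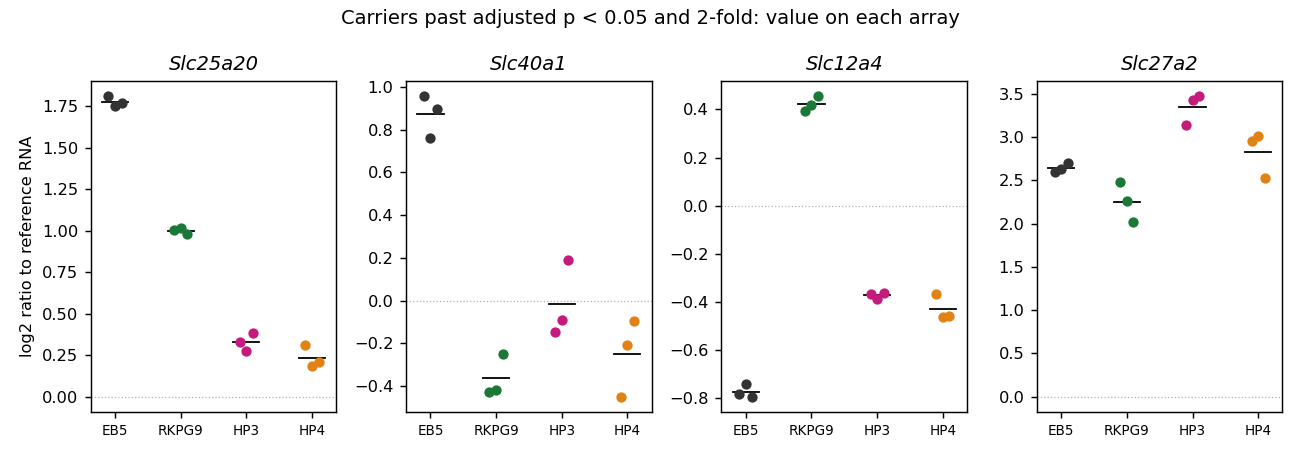
Log2 ratio of the line over the reference (y axis) for Slc25a20, Slc40a1, Slc12a4 and Slc27a2 in EB5, RKPG9, HP3 and HP4. Each point is 1 array, with 3 a line, and the horizontal lines give the mean. Slc25a20 falls from 1.81, 1.75 and 1.77 in EB5 to between 0.18 and 0.39 in HP3 and HP4, and Slc12a4 peaks in RKPG9.

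Glucose enters cells mainly through the hexose carriers of the Slc2 family. Of the 7 probes, 1 rose and 3 fell in HP3 against EB5, with a median log2 change of -0.074. The same counts came to 1 and 3 in HP4 against EB5 (median -0.073), 0 and 4 in RKPG9 against EB5 (median -0.11), 2 and 1 in HP3 against RKPG9 (median 0.0032), 2 and 1 in HP4 against RKPG9 (median 0.0085) and 1 and 1 in HP4 against HP3 (median 0.028). Slc2a1 and Slc2a3, the main glucose carriers of the plasma membrane in early embryonic cells, both passed the test in all 6 comparisons, not all of which held under the alternatives.

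Slc2a1 gave log2 ratios of 0.21, 0.22 and 0.19 for EB5, -0.64, -0.59 and -0.61 for RKPG9, -0.074, -0.13 and -0.11 for HP3, and 0.11, 0.11 and 0.057 for HP4. The 4 lines did not overlap, and their order was EB5, HP4, HP3 and RKPG9 from high to low. Against EB5, Slc2a1 fell by 0.82 log2 units (SE 0.031, adjusted p = 5.5e-09) in RKPG9, by 0.31 log2 units (SE 0.031, adjusted p = 2.3e-05) in HP3 and by 0.11 log2 units (SE 0.031, adjusted p = 0.011) in HP4. It rose by 0.51 log2 units (SE 0.031, adjusted p = 3.7e-07) in HP3 and by 0.70 log2 units (SE 0.031, adjusted p = 2.6e-08) in HP4 against RKPG9. With median centring HP4 fell below HP3 (-0.34, against a rise of 0.20 with loess) and its difference from RKPG9 was 0.048.

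Slc2a3 gave log2 ratios of 3.51, 3.40 and 3.40 for EB5, 3.33, 3.32 and 3.32 for RKPG9, 3.21, 3.21 and 3.21 for HP3, and 2.71, 2.76 and 2.77 for HP4. The order was EB5, RKPG9, HP3 and HP4 from high to low, with no overlap between any pair of neighbours. It fell by 0.69 log2 units (SE 0.035, adjusted p = 1.1e-07) in HP4 and by 0.22 log2 units (SE 0.035, adjusted p = 0.00052) in HP3 against EB5, and by 0.58 log2 units (SE 0.035, adjusted p = 2.4e-07) in HP4 and 0.11 log2 units (SE 0.035, adjusted p = 0.037) in HP3 against RKPG9. RKPG9 was 0.11 below EB5 (adjusted p = 0.025). That call was lost in 7 of 14 and that of HP3 against RKPG9 in 10 of 15. HP3 against EB5 did not pass from the scanner software's processed signals (-0.071).

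Slc2a8, a glucose carrier found largely inside the cell, was 0.26 and 0.29 log2 units higher in HP3 and HP4 than in RKPG9 (adjusted p = 2e-04 and 6.1e-05), differences that turned to -0.044 in HP3 from Cy3 alone and to -0.14 in HP4 with median centring. Slc2a10 was lower than in EB5 by 0.21, 0.17 and 0.18 log2 units in HP3, HP4 and RKPG9 (adjusted p = 0.022, 0.044 and 0.045), calls that were lost in 5 of 14, 7 of 14 and 8 of 14, and the fall in HP4 became 0.037 with median centring. Slc2a2, Slc2a4 and Slc2a5 passed in no comparison, and the log2 changes of Slc2a2 and Slc2a4 lay between -0.075 and 0.12. Slc2a5 was well above background on 1 EB5 array and on no array of the other lines, so no change is given for it.

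The enzymes of glycolysis, which act on the glucose these carriers bring in, were read from a list of 10 measured genes. Against EB5 the list had 2 higher and 3 lower in HP3, 5 higher and 2 lower in HP4 and 1 higher and 4 lower in RKPG9. HP4 had 5 higher and 0 lower against RKPG9, where 20.9% of all probes were higher and 19.2% lower. Against HP3 it had 6 higher and 0 lower, beside 13.8% and 14.8% of all probes. Gpi1, glucose phosphate isomerase, rose by 0.59 and Tpi1, triose phosphate isomerase, by 0.50 log2 units in HP4 against RKPG9. Hk1, a hexokinase, fell by 0.73, 0.68 and 0.45 in HP3, HP4 and RKPG9 against EB5. These Hk1 values rest on 1 EB5 array, because its spots on the others were left out as outliers. Hk1 is among the lower genes counted against EB5.

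Monocarboxylate carriers move lactate, pyruvate and related acids, and 3 probes for 2 genes were measured. Slc16a1, the lactate carrier MCT1, was the 1 gene of the family with a probe past the test. Its probe with the larger changes gave log2 ratios of -0.22, -0.18 and -0.19 for EB5, 0.21, 0.15 and 0.11 for RKPG9, -0.0063, -0.010 and -0.10 for HP3, and 0.20, 0.17 and 0.16 for HP4. The EB5 arrays were below all others, and RKPG9 and HP4 overlapped. By this probe Slc16a1 rose by 0.38 log2 units (SE 0.036, adjusted p = 1.4e-05) in HP4, by 0.36 log2 units (SE 0.036, adjusted p = 1.6e-05) in RKPG9 and by 0.16 log2 units (SE 0.036, adjusted p = 0.0062) in HP3 against EB5, of which the rise in HP4 turned to -0.12 with median centring. The second Slc16a1 probe gave a fall of 0.16 in HP4 against EB5 (adjusted p = 0.015), opposite to the first, and -0.014 in RKPG9, which did not pass, so that the direction for the gene is uncertain.

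Bsg and Emb encode the chaperones that bring such carriers to the cell surface, and were on a list of 4 measured genes with 2 subunits of the sodium pump. Bsg fell by 0.17, 0.21 and 0.22 log2 units in HP3, HP4 and RKPG9 against EB5. Emb rose by 0.28 in HP3 and 0.12 in HP4 and fell by 0.27 in RKPG9. Atp1b1 and Atp1b3, the subunits of the pump that maintains the sodium gradient many carriers draw on, fell by 0.42 and 0.29 in HP3 and by 0.46 and 0.29 in HP4 against RKPG9.

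Amino acid carriers were measured by 13 probes for 10 genes. Of the 13 probes, 2 rose and 1 fell in HP3 against EB5, with a median log2 change of -0.0022. Counted in the same order, higher and lower probes numbered 1 and 4 in HP4 against EB5 (median -0.063), 0 and 3 in RKPG9 against EB5 (median -0.059), 3 and 0 in HP3 against RKPG9 (median 0.051), 0 and 3 in HP4 against RKPG9 (median -0.031) and 1 and 3 in HP4 against HP3 (median -0.081). The genes with the largest changes were Slc7a3, Slc7a7 and Slc1a3, while Slc38a1, a glutamine carrier with 4 probes, passed only by 1 probe in HP4 against RKPG9, with a fall of 0.23 log2 units (adjusted p = 0.026) that was lost in 8 of 15 and turned to 0.15 with median centring and 0.0060 from Cy3 alone.

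Slc7a3, which takes up arginine, lysine and ornithine, gave log2 ratios of 2.49, 2.42 and 2.52 for EB5, 2.59, 2.62 and 2.65 for RKPG9, 3.44, 2.92 and 3.34 for HP3, and 3.18, 2.90 and 2.75 for HP4. All 6 arrays of the Rex1-/- lines were above all 6 of EB5 and RKPG9. Slc7a3 rose by 0.75 log2 units (SE 0.13, adjusted p = 9e-04) in HP3 against EB5 and by 0.61 log2 units (SE 0.13, adjusted p = 0.0038) against RKPG9. In HP4 it rose by 0.47 log2 units (SE 0.13, adjusted p = 0.01) against EB5, a difference that turned to -0.11 with median centring and -0.0012 from Cy3 alone, and against RKPG9 it was 0.33 (SE 0.13, adjusted p = 0.058).

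Slc7a7, a light subunit that exchanges cationic for neutral amino acids, gave log2 ratios of 2.36, 2.44 and 2.44 for EB5, 1.95, 1.91 and 1.89 for RKPG9, 2.09, 2.40 and 2.26 for HP3, and 1.62, 1.75 and 1.80 for HP4. The HP4 arrays were below all others, and the HP3 arrays overlapped those of EB5. Slc7a7 fell by 0.69 log2 units (SE 0.069, adjusted p = 1.7e-05) in HP4 and by 0.50 log2 units (SE 0.069, adjusted p = 0.00017) in RKPG9 against EB5, and by 0.53 log2 units (SE 0.069, adjusted p = 0.00033) in HP4 against HP3. HP3 against EB5 was -0.16 (SE 0.069, adjusted p = 0.094), and HP3 was above RKPG9 by 0.33 log2 units (SE 0.069, adjusted p = 0.0041). The smaller fall in HP4 against RKPG9, 0.20, lost its call in 9 of 15 and turned to 0.23 from Cy3 alone. Slc3a2, the heavy chain that Slc7a7 and Slc7a8 need to reach the membrane, was lowest in HP4, with falls of 0.27 against EB5, 0.17 against RKPG9 and 0.30 against HP3 (adjusted p = 0.0017, 0.023 and 0.0023), of which the first and last did not pass from Cy3 alone. The call of Slc3a2 against RKPG9 was lost in 4 of 15.

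Slc7a8, another light subunit, which carries neutral amino acids, gave log2 ratios of -1.16, -1.07 and -1.10 for EB5, -1.34, -1.19 and -1.32 for RKPG9, -1.31, -1.43 and -1.40 for HP3, and -1.16, -1.20 and -1.10 for HP4. The HP3 arrays were low and overlapped RKPG9, and the HP4 arrays overlapped those of EB5. Slc7a8 fell by 0.27 log2 units (SE 0.050, adjusted p = 0.0019) in HP3 and by 0.17 log2 units (SE 0.050, adjusted p = 0.021) in RKPG9 against EB5, and HP4 was above HP3 by 0.22 log2 units (SE 0.050, adjusted p = 0.0069). The fall in RKPG9 lost its call in 8 of 14. From Cy3 alone it turned to 0.084 and the difference of HP4 from HP3 to -0.030.

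Slc1a3, a sodium-driven glutamate carrier known best from glia, gave log2 ratios of 1.04, 1.10 and 1.35 for EB5, 0.74, 0.96 and 0.94 for RKPG9, 1.48, 1.45 and 1.45 for HP3, and 0.81, 1.12 and 1.05 for HP4. The HP3 arrays were above all others, and the other 3 lines overlapped in part. Slc1a3 rose by 0.58 log2 units (SE 0.094, adjusted p = 8e-04) in HP3 against RKPG9 and by 0.30 log2 units (SE 0.094, adjusted p = 0.034) against EB5, and fell by 0.47 log2 units (SE 0.094, adjusted p = 0.004) in HP4 against HP3. The difference from EB5 lost its call in 7 of 14 alternatives, among them those without background subtraction (0.074) and with median centring (0.17), and that between HP4 and HP3 did not pass from the processed signals (-0.27) or Cy3 alone (-0.28).

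Genes of the amino acid response and of serine synthesis, which respond to amino acid supply, were read from a list of 6 measured genes, of which 5 could be tested against EB5. Those 5 had 0 higher and 2 lower in HP3, 0 higher and 5 lower in HP4 and 0 higher and 5 lower in RKPG9. Of all probes, 19.4%, 26.7% and 21.8% were lower there. Within one session all 6 could be tested, with 3 higher and 0 lower in HP3 and 2 higher and 3 lower in HP4 against RKPG9 and 0 higher and 5 lower in HP4 against HP3. Cebpb, a transcription factor of the response, rose by 0.75, Trib3 by 0.73 and Psph, an enzyme of serine synthesis, by 0.35 log2 units in HP3 against RKPG9. After outlier spots were left out, Cebpb had 2 usable arrays in RKPG9, 2 in HP3 and a single one in HP4. It is nevertheless counted among the 2 genes higher in HP4 than in RKPG9 and the 5 lower than in HP3. Asns, asparagine synthetase, fell by 0.50, 1.29 and 0.46 log2 units in HP3, HP4 and RKPG9 against EB5. Trib3, a target of the response, fell by 0.54 in HP4 and 0.82 in RKPG9, and was -0.085 in HP3, which did not pass.

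Carriers of neurotransmitters and of synaptic vesicles were represented by 5 probes for 3 genes. The 3 probes for Slc6a6, which takes up taurine, an abundant free amino acid that also serves as an osmolyte, all passed in the same comparisons. Of the 5 probes, 0 rose and 0 fell in HP3 against EB5, with a median log2 change of 0.0055. Probes that rose and fell numbered 0 and 0 in HP4 against EB5 (median 0.079), 3 and 0 in RKPG9 against EB5 (median 0.35), 0 and 3 in HP3 against RKPG9 (median -0.35), 1 and 3 in HP4 against RKPG9 (median -0.27) and 0 and 0 in HP4 against HP3 (median 0.076). The Slc6a6 probe with the largest change against RKPG9 gave log2 ratios of 0.31, 0.29 and 0.35 for EB5, 0.86, 0.82 and 0.87 for RKPG9, 0.28, 0.22 and 0.25 for HP3, and 0.46, 0.37 and 0.25 for HP4. A second gave -0.11, -0.11 and -0.21 for EB5, 0.40, 0.39 and 0.52 for RKPG9, -0.12, -0.17 and -0.19 for HP3, and 0.083, -0.017 and -0.13 for HP4, and the third 0.21, 0.039 and 0.16 for EB5, 0.51, 0.46 and 0.48 for RKPG9, 0.16, 0.073 and 0.19 for HP3, and 0.21, 0.26 and 0.18 for HP4. By each of the 3 probes, all RKPG9 arrays were above the 9 others, and EB5, HP3 and HP4 lay close together.

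Slc6a6 rose in RKPG9 against EB5 by 0.53 log2 units (SE 0.047, adjusted p = 5.1e-06) and by 0.58 and 0.35 log2 units by the other probes. In HP3 against RKPG9 it fell by 0.60 log2 units (SE 0.047, adjusted p = 2.7e-06) and by 0.59 and 0.35. HP4 against RKPG9 gave falls of 0.49, 0.46 and 0.27, of which the last, by the probe with the smallest changes, turned to 0.13 with median centring. Against EB5, none of the 3 probes passed in HP3 (-0.067, -0.020 and 0.0055) or in HP4 (0.047, 0.12 and 0.079). Slc18a1, a vesicular monoamine carrier, rose by 0.18 in HP4 against RKPG9 (adjusted p = 0.045), a call lost in 8 of 15.

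**Figure D4:**
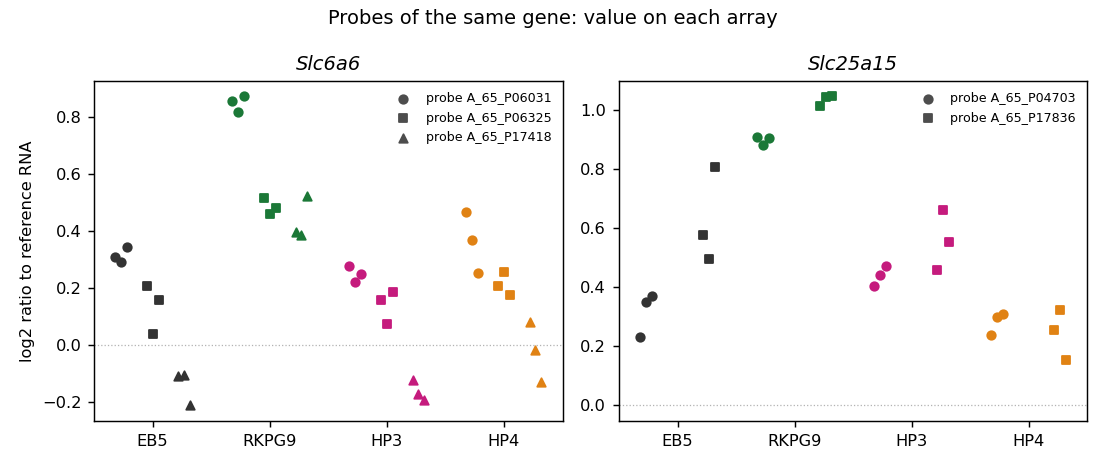
Log2 ratio of the line over the reference (y axis) for the 3 probes of Slc6a6 and the 2 probes of Slc25a15 in EB5, RKPG9, HP3 and HP4. Each point is 1 array, with 3 a line and probe, and the shape of the point names the probe. For each probe the 3 RKPG9 arrays lie above the 9 others.

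Nucleoside carriers and the nucleotide sugar carriers of the Golgi apparatus formed a group of 8 probes for 6 genes. Of the 8 probes, 0 rose and 4 fell in HP3 against EB5, with a median log2 change of -0.12. The counts that rose and fell were 1 and 4 in HP4 against EB5 (median -0.15), 1 and 4 in RKPG9 against EB5 (median -0.10), 1 and 4 in HP3 against RKPG9 (median -0.091), 2 and 4 in HP4 against RKPG9 (median -0.11) and 0 and 2 in HP4 against HP3 (median -0.014). Most of its falls against EB5 came from Slc29a1, Slc28a3 and the Slc35 genes.

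Slc29a1, the equilibrative nucleoside carrier ENT1, fell in both Rex1-/- lines. Array by array, the log2 ratios were 0.94, 0.96 and 0.92 for EB5, 0.74, 0.68 and 0.69 for RKPG9, 0.39, 0.38 and 0.39 for HP3, and 0.22, 0.12 and 0.12 for HP4. The 4 lines did not overlap, in the order EB5, RKPG9, HP3 and HP4 from high to low. Slc29a1 fell by 0.79 log2 units (SE 0.035, adjusted p = 4.5e-08) in HP4, by 0.55 log2 units (SE 0.035, adjusted p = 7.7e-07) in HP3 and by 0.24 log2 units (SE 0.035, adjusted p = 0.00024) in RKPG9 against EB5. Within one session it fell by 0.55 log2 units (SE 0.035, adjusted p = 3.8e-07) in HP4 and by 0.31 log2 units (SE 0.035, adjusted p = 4.6e-05) in HP3 against RKPG9. From Cy3 alone, RKPG9 against EB5 (-0.13) and HP4 against HP3 (-0.20) did not pass.

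Slc35a1, which carries CMP-sialic acid into the Golgi apparatus, also had all 6 arrays of the Rex1-/- lines below all 6 of EB5 and RKPG9. It fell by 0.15 in HP3 and 0.37 log2 units in HP4 against RKPG9 (adjusted p = 0.0048 and 3.4e-06). Against EB5 it fell by 0.15 and 0.37, the former turning to 0.018 from Cy3 alone. By the better measured probe for Slc28a3, a concentrative nucleoside carrier, the falls were 0.20 and 0.22 against EB5 and 0.14 and 0.17 against RKPG9 in HP3 and HP4, where both values of HP4 turned with median centring (0.036 and 0.11) and those of HP3 did not pass there (-0.12 and -0.042). The call of HP3 against RKPG9 was lost in 6 of 15. Its second probe was not well above background on any RKPG9 array, and no fold is given for it. Slc29a2, the second equilibrative carrier, was highest in RKPG9, by 0.23 against EB5, and fell by 0.22 and 0.23 in HP3 and HP4 against RKPG9 (adjusted p = 0.0053, 0.01 and 0.0051), both falls being lost with median centring (-0.18 and -0.083).

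Carriers of organic ions, lipids, peptides, vitamins and urea made up 16 probes for 13 genes. Of the 16 probes, 3 rose and 3 fell in HP3 against EB5, with a median log2 change of -0.031. The same counts came to 3 and 2 in HP4 against EB5 (median 0.028), 0 and 5 in RKPG9 against EB5 (median -0.069), 4 and 3 in HP3 against RKPG9 (median -0.011), 7 and 1 in HP4 against RKPG9 (median 0.11) and 6 and 1 in HP4 against HP3 (median 0.029). Slc27a2, described above, and Slc23a1 had the largest changes.

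Slc23a1, a sodium-driven vitamin C carrier, was measured by the probe that the files name Slc23a2, since the cluster numbers around it lie on the chromosome of Slc23a1. The probe read log2 ratios of 0.19, 0.18 and 0.25 for EB5, 0.15, 0.17 and 0.18 for RKPG9, 0.88, 0.65 and 0.58 for HP3, and 1.01, 0.86 and 0.92 for HP4. All 6 arrays of the Rex1-/- lines were above all 6 of EB5 and RKPG9, which lay close together. Slc23a1 rose by 0.76 log2 units (SE 0.067, adjusted p = 4.3e-06) in HP4 and by 0.54 log2 units (SE 0.067, adjusted p = 9.7e-05) in HP3 against RKPG9, and by 0.72 log2 units (SE 0.067, adjusted p = 1e-05) and 0.50 log2 units (SE 0.067, adjusted p = 2e-04) against EB5. Without background subtraction these rises were 0.27, 0.25, 0.22 and 0.20, and from Cy3 alone the last was 0.11 and did not pass. RKPG9 against EB5 was -0.043 (SE 0.067, adjusted p = 0.66). By its probe, Slc23a2, the related carrier, fell by 0.13 in HP3 against RKPG9 (adjusted p = 0.039), a call lost in 8 of 15, and passed in no other comparison.

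Slco2a1, a prostaglandin carrier that the files name Slc21a2, was highest in HP4. Its log2 ratios were 0.071, 0.30 and 0.069 for EB5, 0.15, 0.19 and 0.18 for RKPG9, 0.25, 0.23 and 0.17 for HP3, and 0.54, 0.47 and 0.52 for HP4. The HP4 arrays were above all others, and the rest overlapped. Slco2a1 rose by 0.36 log2 units (SE 0.057, adjusted p = 4e-04) against EB5, by 0.33 log2 units (SE 0.057, adjusted p = 0.00062) against RKPG9 and by 0.29 log2 units (SE 0.057, adjusted p = 0.0032) against HP3. Without background subtraction these were 0.064, 0.075 and 0.064, and still passed.

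Slco3a1, an organic anion carrier named Slc21a11 in the files, had 2 probes. The one with the larger changes gave log2 ratios of -1.44, -1.29 and -1.44 for EB5, -1.51, -1.45 and -1.52 for RKPG9, -1.63, -1.65 and -1.69 for HP3, and -1.35, -1.29 and -1.38 for HP4. The HP3 arrays were below all others, and the HP4 arrays overlapped those of EB5. By this probe Slco3a1 fell by 0.26 log2 units (SE 0.045, adjusted p = 0.001) in HP3 against EB5, which turned to 0.12 from Cy3 alone, and was higher in HP4 than in HP3 by 0.31 log2 units (SE 0.045, adjusted p = 0.00054), a difference that did not pass with median centring (0.041) or from Cy3 alone (0.13). Its rise in HP4 against RKPG9, 0.15, lost its call in 7 of 15 and turned to -0.20 with median centring and -0.035 from the processed signals. By the other probe HP4 was above RKPG9 by 0.22 (adjusted p = 0.0049).

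Slc22a5, a carnitine carrier of the plasma membrane, is given with a doubt about its probe, whose description names another gene. It was 0.33 log2 units lower in RKPG9 than in EB5, and 0.32 and 0.25 higher in HP3 and HP4 than in RKPG9 (adjusted p = 0.00094, 0.0019 and 0.0058), none of which passed from Cy3 alone.

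Carriers of iron, zinc, copper and other metals were 6 probes for 5 genes, Slc40a1 among them. Of the 6 probes, 0 rose and 2 fell in HP3 against EB5, with a median log2 change of -0.057. Counted in the same order, higher and lower probes numbered 0 and 1 in HP4 against EB5 (median -0.044), 0 and 2 in RKPG9 against EB5 (median -0.011), 2 and 1 in HP3 against RKPG9 (median -0.00076), 1 and 0 in HP4 against RKPG9 (median 0.036) and 1 and 0 in HP4 against HP3 (median 0.037). Slc30a4, which loads zinc into vesicles, gave log2 ratios of -1.86, -1.80 and -1.93 for EB5, -2.43, -2.35 and -2.29 for RKPG9, -1.83, -2.04 and -1.80 for HP3, and -1.69, -1.80 and -1.74 for HP4. The RKPG9 arrays were below all others, and the other 3 lines overlapped in part. Slc30a4 fell by 0.49 log2 units (SE 0.065, adjusted p = 0.00011) in RKPG9 against EB5, and was higher in HP3 by 0.47 log2 units (SE 0.065, adjusted p = 0.00024) and in HP4 by 0.61 log2 units (SE 0.065, adjusted p = 2e-05) than in RKPG9. From Cy3 alone none of these passed, with -0.14, 0.25 and, turned, -0.056. Slc11a2, which takes up ferrous iron, was lowest in HP3, by 0.22 against RKPG9 and 0.17 against EB5 (adjusted p = 0.0058 and 0.023), the latter turning to 0.26 from Cy3 alone and losing its call in 8 of 14.

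Mt1 and Mt2, the metallothioneins that rise with free zinc, were read with the zinc sensor Mtf1 as a list of 3 genes. Mt1 fell by 0.55 and 0.68 log2 units in HP3 and HP4 against RKPG9, and Mt2 by 0.41 and 0.44. Against EB5, Mt1 fell by 0.27 in HP3 and 0.40 in HP4 and rose by 0.27 in RKPG9. These Mt1 values rest on a single EB5 array, because its other spots in that line were left out as outliers. Mtf1 passed in none of the 6 comparisons.

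Carriers of inorganic ions and of acid and base equivalents were the largest group, with 26 probes for 19 genes including the adaptor and the scaffold. Of the 26 probes, 3 rose and 4 fell in HP3 against EB5, with a median log2 change of -0.060. Probes that rose and fell numbered 3 and 9 in HP4 against EB5 (median -0.083), 4 and 10 in RKPG9 against EB5 (median -0.055), 1 and 2 in HP3 against RKPG9 (median -0.023), 1 and 9 in HP4 against RKPG9 (median -0.031) and 1 and 5 in HP4 against HP3 (median 0.0015). Beside Slc12a4, the genes with the largest changes were Slc12a7 and Slc9a3r1.

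Slc9a3r1 gave log2 ratios of 0.19, 0.14 and 0.13 for EB5, -0.10, -0.16 and -0.20 for RKPG9, -0.21, -0.18 and -0.20 for HP3, and -0.25, -0.22 and -0.27 for HP4. All 9 arrays of the other lines were below those of EB5, and the HP4 arrays were lowest. Slc9a3r1 fell by 0.40 log2 units (SE 0.034, adjusted p = 4.6e-06) in HP4, by 0.35 log2 units (SE 0.034, adjusted p = 1.7e-05) in HP3 and by 0.30 log2 units (SE 0.034, adjusted p = 2.8e-05) in RKPG9 against EB5, of which the falls in HP3 and RKPG9 did not pass from Cy3 alone (-0.066 and -0.054). Within one session the scaffold differed little, by a fall of 0.10 in HP4 against RKPG9, lost in 7 of 15, and -0.046 in HP3, which did not pass.

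Slc12a7, the potassium-chloride cotransporter KCC4, fell by 0.27, 0.52 and 0.33 log2 units in HP3, HP4 and RKPG9 against EB5 (adjusted p = 0.0022, 1.7e-05 and 0.00043). Of these, HP3 and RKPG9 did not pass from Cy3 alone (-0.18 and -0.064), and the second Slc12a7 probe, not well above background on any HP3 array, passed in no comparison. Slc20a1 and Slc20a2, the sodium-phosphate cotransporters that are also retrovirus receptors, were both higher than in EB5, Slc20a1 by 0.15, 0.20 and 0.24 and Slc20a2 by 0.18, 0.19 and 0.22 in HP3, HP4 and RKPG9. In HP3 these calls were lost in 7 of 14 for Slc20a1 and 5 of 14 for Slc20a2, and in HP4 Slc20a1 turned to -0.043 without background subtraction and -0.22 with median centring. Between the lines of the other session neither passed. Slc34a1, a sodium-phosphate cotransporter known from kidney, was not well above background on any HP4 array, and neither was Slc1a1, a glutamate carrier, so that no fold is given for HP4.

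Carriers of the inner mitochondrial membrane were 10 probes for 7 genes. Of the 10 probes, 2 rose and 3 fell in HP3 against EB5, with a median log2 change of -0.070. The counts that rose and fell were 2 and 4 in HP4 against EB5 (median -0.086), 5 and 4 in RKPG9 against EB5 (median 0.054), 0 and 5 in HP3 against RKPG9 (median -0.14), 2 and 4 in HP4 against RKPG9 (median -0.11) and 1 and 2 in HP4 against HP3 (median -0.046). In RKPG9 against EB5, 9 of the 10 probes passed, 5 higher and 4 lower, beside 34.4% of all probes called. Among them were 2 probes of Slc25a15 and 2 of Slc25a3, the latter called in opposite directions.

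Slc25a15, which exchanges ornithine for citrulline in the urea cycle, had 2 probes that both peaked in RKPG9. The first gave log2 ratios of 0.23, 0.35 and 0.37 for EB5, 0.91, 0.88 and 0.90 for RKPG9, 0.41, 0.44 and 0.47 for HP3, and 0.24, 0.30 and 0.31 for HP4. The second gave 0.58, 0.49 and 0.81 for EB5, 1.01, 1.04 and 1.05 for RKPG9, 0.46, 0.66 and 0.55 for HP3, and 0.25, 0.32 and 0.16 for HP4. By each probe the RKPG9 arrays were above all others, and by the second the HP4 arrays were below all others. In RKPG9 against EB5, Slc25a15 rose by 0.58 log2 units (SE 0.040, adjusted p = 7.3e-07) and 0.41 log2 units (SE 0.076, adjusted p = 0.0014). Against RKPG9 it fell by 0.46 log2 units (SE 0.040, adjusted p = 6.3e-06) and 0.48 log2 units (SE 0.076, adjusted p = 0.00068) in HP3, and by 0.62 log2 units (SE 0.040, adjusted p = 4.5e-07) and 0.79 log2 units (SE 0.076, adjusted p = 9.5e-06) in HP4. These kept their direction and call under every alternative tried, with the second probe between -0.21 without background subtraction and -1.38 from processed signals in HP4 against RKPG9.

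Slc25a3, the phosphate carrier, rose in RKPG9 against EB5 by 0.38 by one probe and fell by 0.12 by the other (adjusted p = 9.2e-05 and 0.015), the latter turning to 0.24 from Cy3 alone and losing its call in 7 of 14. Slc25a10, the dicarboxylate carrier, fell by 0.30 in HP3 and 0.25 in RKPG9 against EB5, and Slc25a13, an aspartate-glutamate carrier, rose by 0.22 in HP4 and 0.23 in RKPG9. Slc25a5, an adenine nucleotide translocase with pseudogene copies that may share its probes' target, fell in each line against EB5 by one probe (0.28, 0.18 and 0.33 in HP3, HP4 and RKPG9). By the other probe it fell by 0.25 in HP4, which turned to 0.046 without background subtraction, and did not pass in HP3 (-0.13) or RKPG9 (-0.15).

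**Figure D5:**
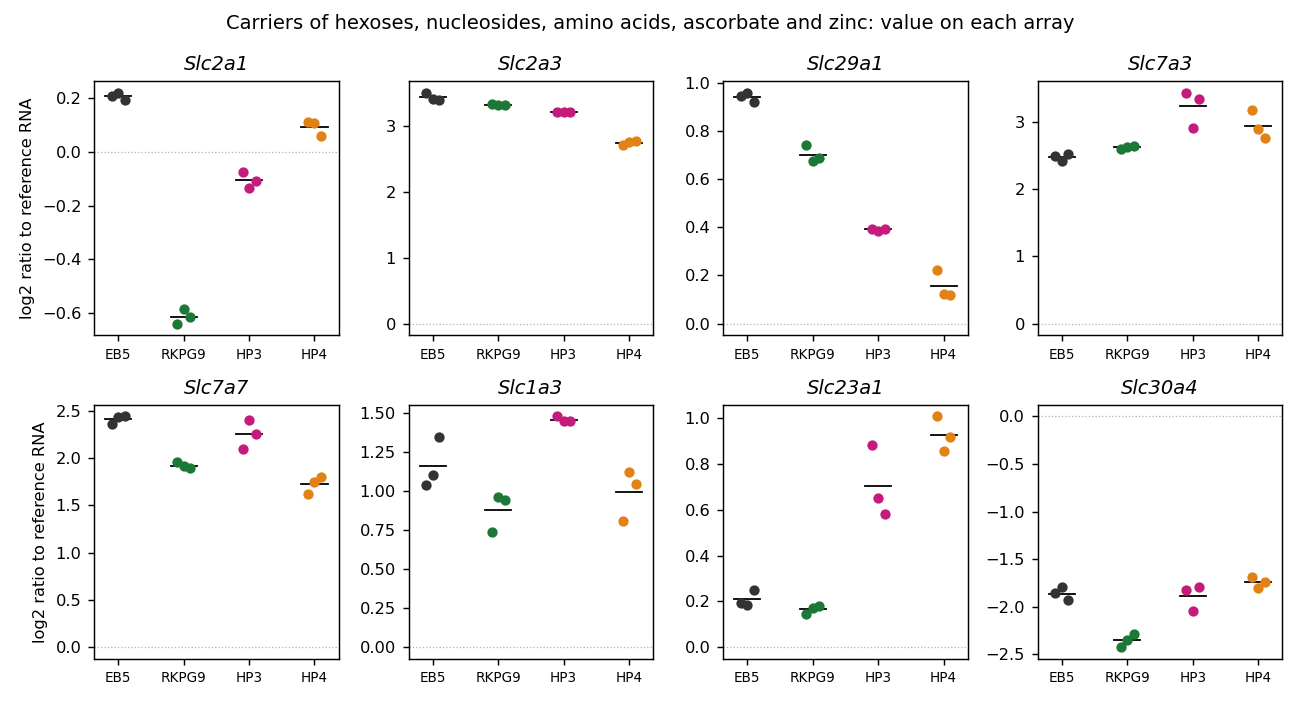
Log2 ratio of the line over the reference (y axis) for Slc2a1, Slc2a3, Slc29a1, Slc7a3, Slc7a7, Slc1a3, Slc23a1 and Slc30a4 in EB5, RKPG9, HP3 and HP4. Each point is 1 array, with 3 a line, and the horizontal lines give the mean. Slc2a1 and Slc30a4 are lowest in RKPG9, Slc2a3 and Slc29a1 are lowest in HP4, and Slc23a1 and Slc7a3 are higher in both Rex1-/- lines.

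Arrays that did not overlap were counted over the 89 member probes with a value on every array. The percentages here are shares of all gene probes with such values, not of the members. EB5 was above the 9 other arrays for 20 members, beside 13.7% of all such probes, and below them for 6 (5.1%). RKPG9 was above all others for 9 (6.89%), among them the 3 probes of Slc6a6, both of Slc25a15, and Slc12a4, Slc29a2 and 1 probe of Slc4a1ap, and below them for 8 (8.74%). HP3 was above for 3 (3.16%) and below for 2 (2.9%). HP4 was above for 3 (9.37%) and below for 11 (9.48%).

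Both Rex1-/- lines were above EB5 and RKPG9 on all arrays for 3 members, Slc7a3, Slc2a8 and Slc23a1, beside 3.22% of all probes. They were below for 5, Slc25a20, Slc29a1, Slc2a3, Slc35a1 and Slc28a3, beside 5.2%. These shares, 3.37% and 5.62% of the members, were near the background. Within one session, RKPG9 was above both Rex1-/- lines for 16 members (18%, beside 12% of all probes) and below them for 10 (11.2%, beside 12.3%).

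Against the reference, 7 member probes were more than 2-fold above and 5 more than 2-fold below in the mean over the lines, 7.45% and 5.32%, beside 6.32% and 6.29% of all probes. The highest mean log2 ratios were 3.18 for Slc2a3, 2.82 for Slc7a3, 2.77 for Slc27a2, 2.08 for Slc7a7 and 1.24 for a probe of Slc38a1. The lowest were -1.96 for Slc30a4, -1.47 for a probe of Slco3a1, -1.23 for Slc7a8 and -1.05 for Slc1a5, a neutral amino acid carrier that the files name Slc1a7. Every line kept the sign of these ratios. They compare each gene with its own level in the pooled RNA of other cell lines, from a single dye orientation, and do not rank the genes by abundance.

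Genes with more than 1 probe allow a check of one probe by another. Of 18 such genes, all probes passed the same way for 0 in HP3 against EB5, 2 in HP4 against EB5, 5 in RKPG9 against EB5, 2 in HP3 against RKPG9, 5 in HP4 against RKPG9 and 2 in HP4 against HP3. No probe passed for 8, 7, 7, 9, 7 and 10 genes in the same order. Probes of a gene passed in opposite directions for Slc16a1 in HP4 against EB5, for Slc25a3 and Slc4a1ap in RKPG9 against EB5, and for Slc4a1ap in HP3 against RKPG9. Slc4a1ap, with 3 probes, rose by 0.22 log2 units by one and fell by 0.19 and 0.10 by the others in RKPG9 against EB5, and the falls turned to 0.21 and 0.067 from Cy3 alone. The smaller fall lost its call in 7 of 14, and the rise by the same probe in HP3 against RKPG9 in 12 of 15.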

How the data were processed

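Total RNA of EB5, RKPG9, HP3 and HP4 was hybridised by the authors to 12 Agilent arrays (NIA Mouse 22K), 3 a line, with the line in Cy3, the reference in Cy5 and no dye swap, and read with Agilent Feature Extraction (version not given in the sources used here). The deposited scanner files hold mean signals and background signals as intensity values and a log10 ratio of red over green, and the deposited value table holds log10 values, whose differences between arrays equal minus the scanner files' log ratio up to a constant per probe, within 0.01, for 93.8% to 95.9% of probes an array (array medians 2.87 to 2.88; the constant is unstated). The authors' background subtraction and dye normalisation entered only the alternatives. From the mean and background signals, limma 3.58.1 (R 4.3.3) was used for normexp correction (offset 50), loess within each array with control spots at weight 0, after leaving out 1824 outlier spots, and log2 ratios of Cy3 over Cy5. A linear model over all 12 arrays with moderated variances gave 6 comparisons, with p-values adjusted by Benjamini-Hochberg over all gene probes. No array held another's values. Figures were drawn with matplotlib 3.10.9.

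Members and gene lists were chosen with earlier results of these data known. Probes are given with all arrays if they passed the test and 2-fold in any comparison, if the study named them, or if they were among the 5 largest rises or falls of a comparison that passed without overlap. In each carrier group, up to 4 more that passed are given by their changes. Other members named were chosen after their values were seen. Of listed genes, the brightest probe was used. Gene symbols are those of the array files, updated by RefSeq names and, where a name was ambiguous, by the chromosome of the 20 nearest cluster numbers. Alternatives were no background subtraction, median centring, processed signals, Cy3 alone (quantile normalised), the authors' table, dim probes filtered out, outlier spots kept, the replicate block, 9 arrays in place of 12 and leaving out each array. Some members that the rule would name are not reported here. The number of arrays limits the precision.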

Additional observations from a re-analysis of the deposited data

Results flagged for a closer look

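Members were set apart where the change from EB5 differed between the Rex1-/- lines HP3 and HP4 by over 0.4 log2 units, passed the test of that difference and showed no overlap between the arrays of both lines. The difference is HP4 against EB5 minus HP3 against EB5, in which EB5 cancels, so that it was measured within one scanner session.

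Slc7a7, the light subunit for cationic and neutral amino acids, had a difference of -0.53 (adjusted p = 0.00033 by limma), with -0.16 in HP3 and -0.69 in HP4. Slc27a2, the fatty acid transport protein, had -0.52 (adjusted p = 0.016 by limma), with 0.71 in HP3 and 0.19 in HP4, and the difference did not pass from the processed signals (-0.25) or Cy3 alone (-0.31). Slc2a3, the glucose carrier, had -0.47 (adjusted p = 1.5e-05 by limma), with -0.22 in HP3 and -0.69 in HP4. Slc1a3, the glutamate carrier, had -0.47 (adjusted p = 0.004 by limma), with 0.30 in HP3 and -0.17 in HP4. From Cy3 alone the differences for Slc7a7 (-0.17), Slc2a3 (-0.25) and Slc1a3 (-0.28) did not pass. HP3 and HP4 have the same genotype by the labels, and each is a line of its own. Of 8 measured ES cell markers, 5, Zfp42 among them, were also lower and 0 higher in HP4 than in HP3 by limma, and their part in these differences was not tested.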

How the results depend on the processing

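Counts of members higher and lower stayed within 1.5 times those given above under no background subtraction, processed signals, outlier spots kept, the filter on dim probes and, for the 3 comparisons it allows, a fit to 9 arrays. With median centring the counts were 7 higher and 35 lower in HP3 against EB5, 22 and 48 in HP4 against EB5, 26 and 45 in HP4 against RKPG9 and 21 and 44 in HP4 against HP3, where 37.1%, 79.4%, 76.7% and 70.6% of all probes passed. From Cy3 alone they were 21 higher in HP4 against EB5, 18 lower in RKPG9 against EB5, 6 higher in HP3 against RKPG9, 7 higher in HP4 against RKPG9, and 4 higher and 6 lower in HP4 against HP3, and the authors' table gave 21 lower in RKPG9 against EB5. Of all probes, 44.8%, 25.4%, 10.4%, 26.6% and 9.79% passed from Cy3 alone in that order, and 34.3% from the authors' table. Leaving out each array of the compared lines in turn gave 8 to 11 higher and 18 to 21 lower in HP3 against EB5, 10 to 13 higher and 21 to 30 lower in HP4 against EB5, 14 to 15 higher and 23 to 26 lower in RKPG9 against EB5, 11 to 13 higher and 14 to 17 lower in HP3 against RKPG9, 12 to 15 higher and 21 to 27 lower in HP4 against RKPG9 and 9 to 12 higher and 12 to 18 lower in HP4 against HP3. Members past the test and 2-fold numbered 0 to 2 in HP3 against EB5, 1 to 4 in HP4 against EB5, 0 to 3 in RKPG9 against EB5, 0 to 1 in HP3 against RKPG9, 0 to 4 in HP4 against RKPG9 and 0 to 1 in HP4 against HP3 over all alternatives. Of 172 changes of named probes that passed, 56 kept direction and call under every alternative, 78 lost the call in at least 1 without turning, and 38 turned in at least 1. With median centring the turned log2 changes were Slc7a3 -0.11, Slc16a1 -0.12, Slc12a4 -0.25, Slc28a3 0.036, Slc2a10 0.037, Slc2a8 -0.34, Slc16a1 0.15, Slc20a1 -0.22 and Slc25a3 -0.043 in HP4 against EB5, Slc16a1 -0.12, Slc25a15 0.032, Slc2a1 -0.34 and Slc25a10 -0.073 in HP4 against HP3, Slc2a8 -0.14, Slc6a6 0.13, Slc16a1 0.030, Slco3a1 -0.20, Slc25a10 -0.20, Slc25a5 -0.64, Slc28a3 0.11 and Slc38a1 0.15 in HP4 against RKPG9, and Slc2a8 -0.014 in HP3 against EB5. From Cy3 alone they were Slc7a3 -0.0012, Slc4a1ap 0.045, Slc4a1ap 0.0062 and Slc25a15 0.032 in HP4 against EB5, Slc7a8 -0.030 in HP4 against HP3, Slc30a4 -0.056, Slc7a7 0.23, Slc25a5 -0.027 and Slc38a1 0.0060 in HP4 against RKPG9, Slc11a2 0.26, Slco3a1 0.12 and Slc35a1 0.018 in HP3 against EB5, Slc2a8 0.089, Slc4a1ap 0.067, Slc4a1ap 0.21, Slc7a8 0.084 and Slc25a3 0.24 in RKPG9 against EB5, and Slc2a8 -0.044 in HP3 against RKPG9. Without background subtraction they were Slc20a1 -0.043 and Slc25a5 0.046 in HP4 against EB5. From the processed signals and the authors' table, Slco3a1 -0.035 in HP4 against RKPG9 turned, to the same value. The causes were not tested.

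Replicate numbers are shared between the lines, but the correlations of same-numbered arrays, after removing the line means, lay between -0.18 and 0.19, so the numbers were not taken to pair the arrays. With the replicate block the counts of higher and lower members were 11 and 21 in HP3 against EB5, 13 and 28 in HP4 against EB5, 14 and 29 in RKPG9 against EB5, 12 and 17 in HP3 against RKPG9, 17 and 28 in HP4 against RKPG9 and 12 and 14 in HP4 against HP3.

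With 3 arrays a line, one dye orientation and EB5 read in its own session, small differences from EB5 and the absolute ratios to the reference are the least certain values. The 7 members not well above background in at least 1 line have no exact fold there.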
